A study of Mus musculus with 22 samples.

Results

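Bulk RNA sequencing of mouse small intestine was used to describe 6 genes, Rab29, Raet1e, Tmco4, Agtpbp1, Mfsd10 and Fam210b, among 54838 in the deposited table. They were chosen by their zinc values: each rose with zinc in an earlier fit of these same libraries, and none is a metallothionein or a zinc transporter. All 6 were among the 16389 genes that passed the filter on low counts. Because the zinc values chose the genes, those values are given below as a description, and their calls support nothing. The choice did not use the comparisons between genotypes, but these are not free of it: the water libraries were the baseline of the zinc contrasts, so that a low level in the water libraries of 1 genotype made a gene more likely to be chosen.

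All mice were adult FVB/N females. They carried either the wild-type glucocorticoid receptor (GRWT) or, on both alleles, a point mutant that forms dimers poorly (GRDim), in every cell of the body rather than in the gut alone. Their drinking water was either plain or held 25 mM ZnSO4 over 7 days. GRWT mice gave 10 libraries, 5 with each kind of water, and GRDim mice gave 12, again evenly split. The label was ileum for 12 libraries and intestinal epithelial cells (IEC), scraped from the inner side of the distal ileum, for the other 10. The labels do not say whether each library came from its own mouse, so p-values measure the spread between these libraries. Levels are CPM, the reads of a gene per 1000000 reads of its library, after adjustment by the trimmed mean of M-values (TMM), unless they are called unscaled.

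Library totals ran from 13149951 to 15620744 counts. The tissue label did not follow the tissue content, and whether some labels were exchanged was not tested: 12 libraries, 7 of them labelled IEC, had between 283 and 422 CPM of Myh11, the heavy chain of smooth muscle myosin, and are called muscle-rich, and 10 had between 5.11 and 22.2 CPM and are called muscle-poor. The threshold of 100 CPM fell in that gap. In GRDim mice on water the 3 IEC libraries were muscle-rich and the 3 ileum libraries muscle-poor, and on zinc it was the reverse. In GRWT mice, with either drinking water, the 2 IEC libraries were muscle-rich. Of the GRWT ileum libraries, 1 was muscle-rich and 2 were muscle-poor with either drinking water. The epithelial genes Epcam (2070 to 3420 CPM) and Vil1 (1900 to 6080 CPM) were present in every library. GRWT zinc ileum replicate 3, a muscle-poor library, stood apart from the rest. It held 18.6 CPM of Fabp6, the ileal bile acid binding protein, against 3940 to 11700 CPM elsewhere. Its 5 markers of proximal small intestine summed to 6690 CPM, against 161 to 249 CPM in the other libraries, and its 8 markers of villus enterocytes to 101000 CPM, against 9950 to 26900 CPM. Its TMM factor was 0.63, against 0.896 to 1.13 in the others, so its scaled levels lie well above its unscaled ones. Main values below are also given without it. In bulk tissue, fewer cells of a type and less RNA per cell cannot be told apart.

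Zinc in excess is handled in animal cells by metallothioneins, small cysteine-rich proteins that bind the metal, and by transporters that carry it out of the cytosol. The transcription factor MTF-1 senses free zinc and binds metal response elements in the promoters of the metallothionein genes and of the zinc exporter gene Slc30a1. The small intestine takes up dietary zinc through the importer Slc39a4. The 6 genes described here have other known roles. Rab29 is a small GTPase of the Golgi and lysosome that recruits the kinase Lrrk2. Raet1e encodes a cell surface ligand of NKG2D, the activating receptor of natural killer cells and of some T cells. Agtpbp1 encodes a carboxypeptidase that removes glutamate residues from tubulin, and its loss degenerates Purkinje cells. Mfsd10 is a membrane protein of the major facilitator superfamily of transporters, Fam210b a mitochondrial protein linked to heme production in red cell precursors, and Tmco4 a predicted membrane protein with a coiled coil.

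The promoters are shown because the genes rose together with the metallothioneins and because the metal response element is a short, searchable sequence. Promoter sequences were taken from RefSeq on build GRCm38.p6, in which all 6 genes were found, with 10 annotated starts in all. The 250 bases before each start were searched on both strands for the core of the element, TGCACNC or TGCGCNC. Sequences are printed 5′ to 3′ on the strand of the gene, in lower case with the cores in capitals, and stop where the exons of the gene begin in GENCODE vM21. Of several starts, 1 is shown, whose first transcribed bases lie in a GENCODE transcript and, for Agtpbp1, whose window is free of the exons of the gene. The Agtpbp1 window covers 32 exon bases of A930015P04Rik on the other strand.
Rab29 (chr1:131867027-131867223, plus strand): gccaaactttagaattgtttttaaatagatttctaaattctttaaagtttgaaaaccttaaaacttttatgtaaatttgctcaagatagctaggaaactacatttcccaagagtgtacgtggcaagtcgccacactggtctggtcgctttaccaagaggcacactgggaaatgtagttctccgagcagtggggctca
Raet1e (chr10:22158319-22158568, plus strand): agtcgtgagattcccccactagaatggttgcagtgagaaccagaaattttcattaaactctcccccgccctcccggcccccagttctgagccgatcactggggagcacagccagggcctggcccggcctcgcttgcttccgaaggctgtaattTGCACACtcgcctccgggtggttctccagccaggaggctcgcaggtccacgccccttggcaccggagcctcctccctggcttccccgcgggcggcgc
Tmco4 (chr4:138972655-138972887, plus strand): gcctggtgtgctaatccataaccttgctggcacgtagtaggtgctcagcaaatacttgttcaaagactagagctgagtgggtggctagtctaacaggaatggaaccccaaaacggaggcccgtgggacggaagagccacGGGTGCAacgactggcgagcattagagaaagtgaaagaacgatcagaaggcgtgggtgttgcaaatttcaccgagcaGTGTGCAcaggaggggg
Agtpbp1 (chr13:59557348-59557597, minus strand): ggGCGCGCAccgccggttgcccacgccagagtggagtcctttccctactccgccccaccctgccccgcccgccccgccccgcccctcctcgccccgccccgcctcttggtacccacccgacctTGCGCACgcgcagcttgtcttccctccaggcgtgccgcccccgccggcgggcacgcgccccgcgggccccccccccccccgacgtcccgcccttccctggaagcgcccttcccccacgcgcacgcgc
Mfsd10 (chr5:34637213-34637462, minus strand): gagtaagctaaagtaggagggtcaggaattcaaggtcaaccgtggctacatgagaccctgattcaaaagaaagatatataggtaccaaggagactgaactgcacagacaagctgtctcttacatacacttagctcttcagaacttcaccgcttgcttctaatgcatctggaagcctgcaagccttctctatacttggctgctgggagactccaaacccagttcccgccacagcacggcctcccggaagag
Fam210b (chr2:172345327-172345564, plus strand): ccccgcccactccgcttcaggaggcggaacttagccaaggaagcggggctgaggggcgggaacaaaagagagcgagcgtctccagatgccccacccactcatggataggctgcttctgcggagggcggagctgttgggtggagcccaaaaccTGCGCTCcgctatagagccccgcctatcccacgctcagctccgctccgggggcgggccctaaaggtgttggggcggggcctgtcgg

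A core was present before 7 of the 10 starts, in 4 of the 6 genes. Tmco4 had 2 cores before the start shown and 0 before its other start. Agtpbp1 had 2 before the start shown, and 3 and 2 before its other starts, whose windows overlap the exons of the gene. The window shown also overlaps that of the other start with 2 cores. Its core TGCGCAC lies in both windows and is counted for both starts. Raet1e had 1 before each of its 2 starts, and Fam210b had 1. The windows of Rab29 and Mfsd10 held none of these letters. Of all 32851 promoters in the table, 21.4% held at least 1 core, 5.17% at least 2 and 1.26% at least 3. Counted by gene, 23.8% of 27025 genes had a core before at least 1 start. The antioxidant response element, TGACNNNGC, which occurs in 10.2% of all promoters, was in none of the 10 windows, and neither was AGAACA, the glucocorticoid response element half-site, which occurs in 16.1%. A match describes the letters of a short window and was not tested for binding.

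On the genome, Rab29 lies at chr1:131867224-131872887, Tmco4 at chr4:138972888-139059171, Agtpbp1 at chr13:59445742-59585227, Mfsd10 at chr5:34633642-34637212 and Fam210b at chr2:172345565-172355749 (GENCODE vM21, GRCm38), and none of these 5 shares exon bases with another gene. Raet1e, at chr10:22158569-22374139, spans its neighbours. It shares 496 of its 2159 exon bases with 2 other genes of NKG2D ligands, H60b and Raet1d, on the same strand. How reads on shared bases were treated is not given in the sources used here, so the counts of Raet1e, Raet1d and H60b are uncertain.

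Levels between genes can be compared per kilobase of exon. In GRWT mice on water, Fam210b stood at 11.6 ± 1.11 CPM per kb (SD, n = 5) and Tmco4 at 11.3 ± 4.64. Rab29 followed at 5.82 ± 0.5 and Mfsd10 at 3.9 ± 0.471 CPM per kb. Agtpbp1 stood at 0.432 ± 0.235 CPM per kb over all 21824 exon bases of its annotation, or at a mean of 0.92 over the 10239 bases of the basic annotation. Raet1e was the scarcest, at 0.0683 ± 0.0347 CPM per kb. Tmco4 and Agtpbp1 had the largest SD relative to their mean among the 5 genes above Raet1e, and both differed between muscle-rich and muscle-poor libraries.

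On zinc, all 6 genes stood higher than on water in both genotypes. In the fit of 22 libraries with the muscle class as covariate, the log2 fold changes in GRWT mice were 3.5 ± 0.53 (SE) for Raet1e, 2.06 ± 0.35 for Agtpbp1, 1.32 ± 0.17 for Tmco4, 1.29 ± 0.14 for Rab29, 0.99 ± 0.13 for Fam210b and 0.89 ± 0.09 for Mfsd10. In GRDim mice they were 2.83 ± 0.46 for Raet1e, 1.17 ± 0.32 for Agtpbp1, 0.82 ± 0.12 for Rab29, 0.78 ± 0.12 for Fam210b, 0.57 ± 0.15 for Tmco4 and 0.44 ± 0.08 for Mfsd10. The median was 1.31 in GRWT and 0.80 in GRDim, against 0.00 over all genes tested in either. For scale, the metallothionein gene Mt1 changed by 4.96 ± 0.36 in GRWT and 4.12 ± 0.31 in GRDim. A gene was called when its adjusted p was under 0.05 and its log2 fold change was beyond 0.8. All 6 were called higher in GRWT and 2, Rab29 and Raet1e, in GRDim, where 0.122% and 0.232% of all genes were called higher. Nothing is read from these counts, since the same contrasts chose the genes. Without GRWT zinc ileum replicate 3 the fold changes in GRWT were 3.47 ± 0.54 for Raet1e, 1.54 ± 0.24 for Agtpbp1, 1.17 ± 0.16 for Tmco4, 1.13 ± 0.1 for Rab29, 0.88 ± 0.09 for Mfsd10 and 0.8 ± 0.09 for Fam210b. The fold changes in GRDim moved by at most 0.01 without it, and Agtpbp1 (1.17 ± 0.22) was then past the rule for a call in GRDim as well.

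Of 68 tested markers of gut cell types and segments, edgeR called 0 with zinc in GRWT and 0 in GRDim, with 19 and 9 at an unadjusted p under 0.05, against 15.4% and 15.5% of all genes. DESeq2 called Apoa4, Gata4 and Onecut2 in GRWT and Gzmb in GRDim. The lists with the highest median zinc fold change in GRWT were the proximal small intestine (2.9, and 0.09 without GRWT zinc ileum replicate 3), B and plasma cells (1.35, and 1.43 without it) and villus enterocytes (0.69, and -0.02 without it). The B and plasma cell sums overlapped between water and zinc in both GRWT classes (1340 to 1740 and 1040 to 1730 CPM in the muscle-rich class, 14 to 14.4 and 8.66 to 26.1 CPM in the muscle-poor class). The lowest medians in GRWT were those of smooth muscle and fibroblasts (-0.51 each, and -0.42 and -0.39 without replicate 3), and without replicate 3 that of intraepithelial T cells (-0.54, and 0.02 with it). In GRDim the medians of the first 5 of these lists were 0.08, -0.3, 0.24, -0.09 and -0.05, and the lowest was that of intraepithelial T cells (-0.61), whose markers summed to 379 to 450 CPM on water and 211 to 224 CPM on zinc in the muscle-rich class, and to 301 to 500 and 175 to 270 CPM in the muscle-poor class. Their part in the levels of the 6 genes was not tested.

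**Figure D1:**
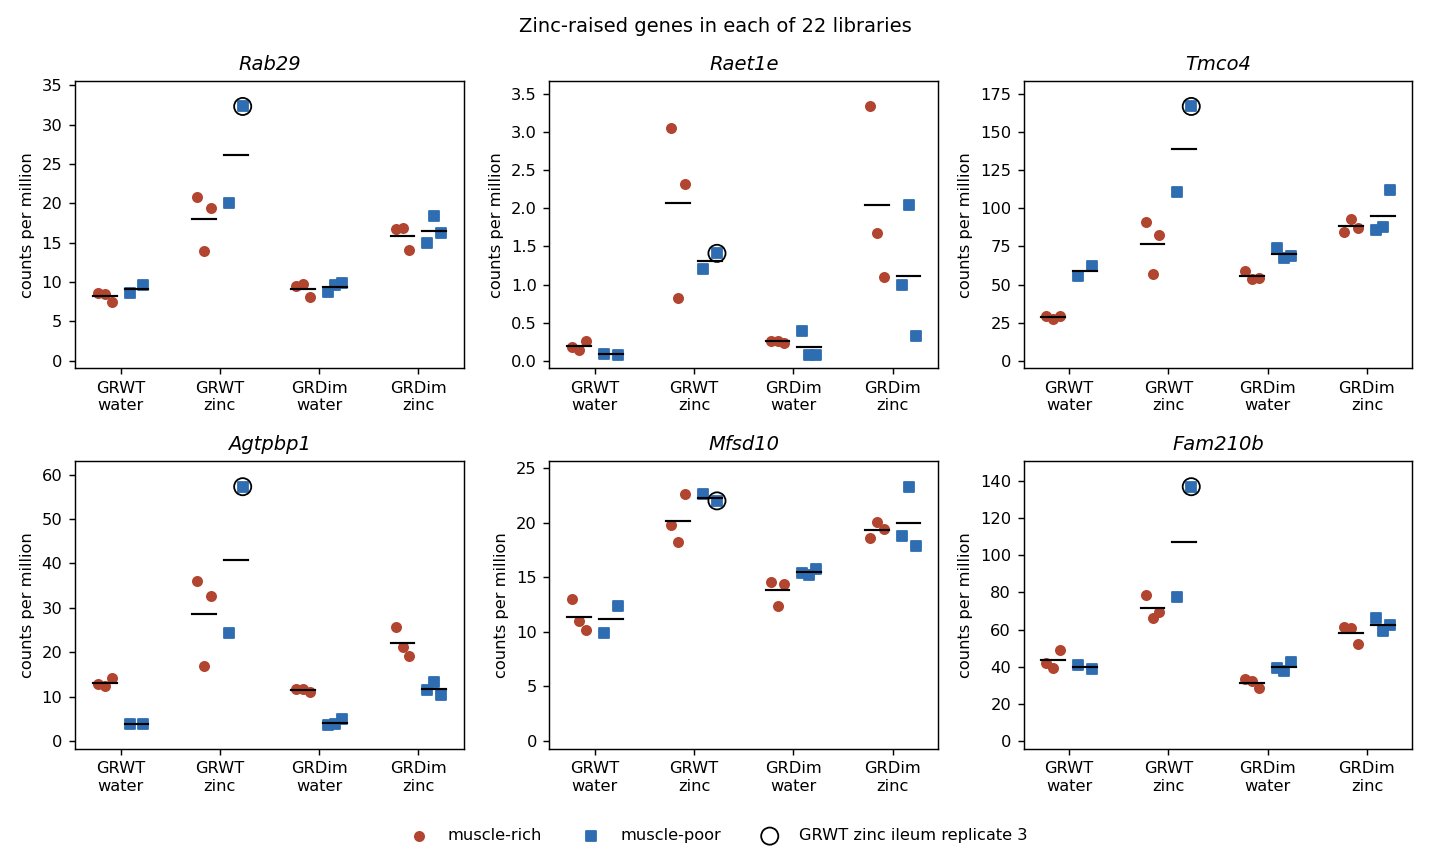
Level of each gene (TMM-scaled CPM, linear axis) in the 22 libraries, by condition. Circles are muscle-rich and squares muscle-poor libraries, bars are means of each class, and a ring marks GRWT zinc ileum replicate 3. Agtpbp1 on water separates into 2 levels by muscle class, and Tmco4 in GRWT mice on water does so in the other direction.

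Within each muscle class the zinc and water libraries of a genotype were compared by their ranges. In GRWT, the zinc libraries lay above the water libraries for 6 of 6 genes in the muscle-rich class (3 against 3) and in the muscle-poor class (2 against 2). In GRDim, they did so for 6 of 6 genes in the muscle-rich class and for 5 of 6 in the muscle-poor class (3 against 3 in each). Raet1e was the exception, with 0.319 CPM in its lowest zinc library and 0.392 CPM in its highest water library. Over all genes tested, the share with such a pattern was 7.51% and 17.0% in the GRWT classes and 15.3% and 11.2% in the GRDim classes, in the same order. These shares show how often so few libraries separate in any gene, and the zinc contrast chose the members.

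Rab29 had overlapping muscle classes in all 4 conditions. On water it had 8.58, 8.49 and 7.51 CPM in the muscle-rich GRWT libraries and 8.55 and 9.58 CPM in the muscle-poor ones. On zinc it had 20.8, 13.9 and 19.4 CPM in the muscle-rich GRWT libraries, 20 CPM in the muscle-poor replicate 2 and 32.3 CPM in replicate 3, which is 20.3 CPM unscaled. The lowest GRWT zinc library was IEC replicate 5, and it still stood above all GRWT water libraries. In GRDim mice, water libraries ran from 8.07 through a median of 9.53 to 9.89 CPM, and zinc libraries from 14.1 through 16.4 to 18.4 CPM. The order of the condition means was GRWT water (8.54 ± 0.734), GRDim water (9.24 ± 0.703), GRDim zinc (16.2 ± 1.51) and GRWT zinc (21.3 ± 6.71). The ranges of the pair on water overlapped, as did those of the pair on zinc. Without replicate 3 the GRWT zinc mean was 18.5 ± 3.12 CPM (n = 4).

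Raet1e was close to the limit of detection on water. A count of 3, taken as the floor, was worth 0.175 to 0.326 CPM depending on the library. In GRWT mice on water 4 of 5 libraries had 3 counts or fewer, with 11 counts in all (1 to 4 per library), against 128 counts on zinc (12 to 51). In GRDim mice 2 of 6 water libraries had 3 or fewer, with 19 counts in all (1 to 5), against 135 on zinc (4 to 48). The pooled ratio of zinc to water, per library total, was 11.3 in GRWT (95% exact interval 6.13 to 23.3) and 7.25 in GRDim (4.47 to 12.4). These intervals cover counting error only and overlap. Among zinc libraries Raet1e ran from 0.827 to 3.06 CPM in GRWT and from 0.319 to 3.34 CPM in GRDim. The order of the condition means was GRWT water (0.147 ± 0.0749 CPM), GRDim water (0.216 ± 0.123), GRDim zinc (1.58 ± 1.05) and GRWT zinc (1.76 ± 0.907), and the ranges of either neighbouring pair of the same drinking water overlapped. Without replicate 3 the GRWT zinc mean was 1.85 ± 1.02 CPM.

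Tmco4 on water stood lower in GRWT than in GRDim mice. The muscle-rich GRWT libraries had 29.1, 27.6 and 29.6 CPM and the muscle-poor ones 55.5 and 62.3 CPM. The muscle-rich GRDim libraries had 58.6, 53.7 and 54.6 CPM and the muscle-poor ones 74.3, 67.6 and 68.5 CPM. Muscle-rich and muscle-poor libraries on water did not overlap in either genotype, and the genotypes did not overlap in either class. On zinc the muscle-rich GRWT libraries had 91.2, 56.8 and 82.4 CPM, the muscle-poor replicate 2 had 111 CPM, and replicate 3 had 167 CPM, or 105 CPM unscaled. The zinc libraries of GRDim mice ran from 84.7 through a median of 87.3 to 112 CPM. The order of the condition means was GRWT water (40.8 ± 16.7), GRDim water (62.9 ± 8.42), GRDim zinc (91.7 ± 10.6) and GRWT zinc (102 ± 41.4). GRWT water and GRDim water overlapped when the classes were pooled, as did the pair on zinc. Without replicate 3 the zinc pair changed places, since the GRWT zinc mean was 85.4 ± 22.5 CPM.

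Agtpbp1 on water differed between muscle classes by a larger ratio than any other member. It had 12.8, 12.4 and 14.2 CPM in the muscle-rich GRWT libraries, and 3.78 and 3.91 CPM in the muscle-poor ones. In GRDim mice on water it had 11.7, 11.6 and 11.1 CPM in the muscle-rich libraries and 3.61, 3.7 and 4.98 CPM in the muscle-poor ones. The classes thus stood apart in both genotypes, with muscle-rich means 3.41 and 2.8 times the muscle-poor means. On zinc, muscle-rich GRWT libraries had 36.1, 16.8 and 32.7 CPM, muscle-poor replicate 2 had 24.4 CPM, and replicate 3 had 57.3 CPM, or 36.1 CPM unscaled. In GRDim mice on zinc the muscle-rich libraries had 25.6, 21.2 and 19.2 CPM and the muscle-poor ones 11.4, 13.2 and 10.4 CPM, again apart. The order of the condition means was GRDim water (7.79 ± 4.08), GRWT water (9.42 ± 5.13), GRDim zinc (16.8 ± 6.08) and GRWT zinc (33.5 ± 15.3). With the classes pooled, each neighbouring pair in that order overlapped. Without replicate 3 the GRWT zinc mean was 27.5 ± 8.69 CPM, the order was as before, and the pair on zinc still overlapped.

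The size of the zinc step in Agtpbp1 depended on whether it was expressed as a ratio or as a difference. In GRDim mice the ratio of zinc to water means was 2.85 in the muscle-poor and 1.92 in the muscle-rich class, whereas the difference was 7.56 CPM in the muscle-poor and 10.5 CPM in the muscle-rich class. In GRWT mice the muscle-rich class gave a ratio of 2.17 and a difference of 15.4 CPM. The muscle-poor class gave a ratio of 10.6 and a difference of 37 CPM with both zinc libraries, and a ratio of 6.34 and a difference of 20.6 CPM with replicate 2 alone. The 10 smooth muscle markers summed to between 1580 and 2540 CPM in muscle-rich and between 194 and 338 CPM in muscle-poor libraries, and the 5 B and plasma cell markers to between 1040 and 4540 CPM and between 8.66 and 41.2 CPM. The part of these cells in the level of Agtpbp1 was not tested.

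**Figure D2:**
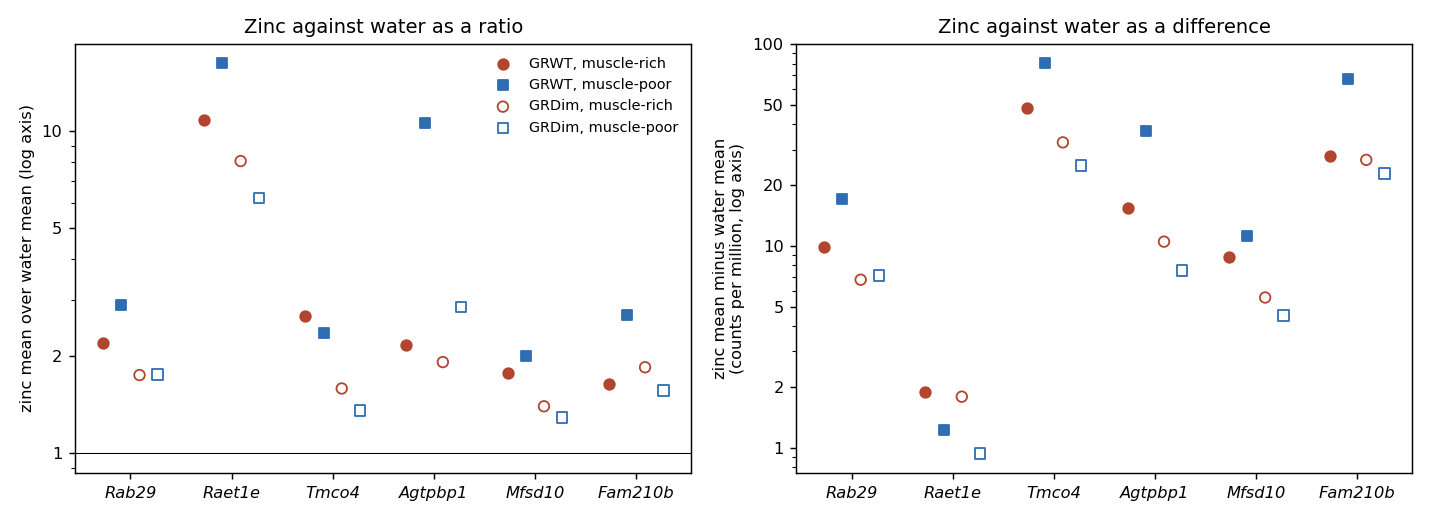
Zinc against water for each gene, genotype and muscle class, as a ratio of mean CPM (left, log axis) and as a difference of mean CPM (right, log axis). Each point rests on 2 or 3 libraries a side. For Agtpbp1 in GRDim mice the muscle-poor class has the larger ratio (2.85 against 1.92) and the smaller difference (7.56 against 10.5 CPM).

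Mfsd10 had the smallest fitted zinc fold change of the 6 genes in both genotypes with all libraries. In GRDim with the replicate block Tmco4 had a smaller one (0.37 against 0.45). In GRWT without replicate 3, or in the muscle-rich class alone, Fam210b had a smaller one (0.72 against 0.82 in that class). In GRWT mice it had 13, 11 and 10.2 CPM in the muscle-rich and 9.87 and 12.4 CPM in the muscle-poor libraries on water, and 19.8, 18.2 and 22.6 CPM and then 22.6 and 22.0 CPM on zinc. The zinc library of replicate 3 held 13.8 CPM of Mfsd10 when unscaled, which made it the lowest of the 5 and placed it below the highest unscaled water library, at 14.3 CPM. In GRDim mice the levels ran from 12.4 through a median of 14.9 to 15.8 CPM on water and from 17.9 through 19.1 to 23.3 CPM on zinc. The order of the means was GRWT water (11.3 ± 1.36), GRDim water (14.6 ± 1.2), GRDim zinc (19.7 ± 1.91) and GRWT zinc (21.0 ± 1.95), and the pair on plain water overlapped, as did the pair on zinc. Without replicate 3 the GRWT zinc mean was 20.8 ± 2.17 CPM. On water its GRDim muscle-poor libraries (15.2 to 15.8 CPM) lay above the muscle-rich ones (12.4 to 14.6 CPM).

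Per kilobase, Fam210b and Tmco4 were the most abundant members in GRWT mice on water, and their order turned with the basic annotation (11.6 and 12.2 CPM per kb). Fam210b there had 42.1, 39.4 and 48.9 CPM in the muscle-rich and 41.0 and 39.0 CPM in the muscle-poor libraries. On zinc the GRWT libraries had 78.5, 66.3 and 69.4 CPM, then 77.5 CPM in the muscle-poor replicate 2 and 137 CPM in replicate 3, or 86.2 CPM unscaled. GRDim mice had 33.3, 32.5 and 28.6 CPM in the muscle-rich and 39.4, 37.4 and 42.5 CPM in the muscle-poor libraries on water. On zinc they ran from 52.2 through a median of 61.1 to 66.2 CPM. The order of the means was GRDim water (35.6 ± 5.1), GRWT water (42.1 ± 4.01), GRDim zinc (60.4 ± 4.63) and GRWT zinc (85.7 ± 29.0). The pair on water overlapped, whereas the lowest GRWT zinc library, at 66.3 CPM, lay just above the highest GRDim zinc library, at 66.2 CPM. Without replicate 3 the GRWT zinc mean was 72.9 ± 5.98 CPM.

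The genotypes were compared on normal water, where zinc libraries bear on the contrast only through the muscle coefficient, the scaling and the estimate of spread that all libraries share. None of the 6 genes was called in the edgeR quasi-likelihood fit, where 5.68% of all genes were called in either direction. At an unadjusted p under 0.05 there were 3 of the 6, against 31.2% of all genes, and DESeq2 called 0. By adjusted p alone, which 16.2% of all genes passed, 2 passed: Tmco4 was higher in GRDim by 0.62 ± 0.16 (adjusted p = 0.0134) and Mfsd10 by 0.35 ± 0.09 (adjusted p = 0.0135). Both stayed under the fold needed for a call. Fam210b stood at -0.29 ± 0.13 (adjusted p = 0.115), Agtpbp1 at -0.19 ± 0.34 (0.741), Rab29 at 0.09 ± 0.13 (0.698) and Raet1e at 0.56 ± 0.68 (0.61). Without GRWT zinc ileum replicate 3, which leaves a smaller SE, Fam210b passed by adjusted p at -0.27 ± 0.08 (0.0127), as did 32.2% of all genes. The 95% interval was -0.16 to 0.34 for Rab29, -0.86 to 0.48 for Agtpbp1 and -0.77 to 1.89 for Raet1e, so that a log2 fold change of 0.8 in size was outside it for Rab29 and inside it for the other 2.

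The genotype difference of Tmco4 on water was called in the muscle-rich libraries taken alone. Its mean there was 55.6 ± 2.6 CPM in GRDim against 28.8 ± 1.05 CPM in GRWT (SD, n = 3 each), and the edgeR fit of muscle-rich libraries alone gave 0.96 ± 0.14 with adjusted p = 0.000391, a call, where that fit called 10.3% of all genes. In the muscle-poor class the means were 70.1 ± 3.62 (n = 3) and 58.9 ± 4.78 CPM (n = 2), and the fold change was 0.22 ± 0.18 (edgeR adjusted p = 0.972). Whether the genotype difference itself differed between classes was not tested. With the replicate number as a block Tmco4 was also called, where 5.84% of all genes were. Fam210b, too, passed by adjusted p in the muscle-rich class, at -0.46 ± 0.09 (edgeR, adjusted p = 0.00149), as did 36.8% of all genes in that fit, with 31.5 ± 2.52 CPM in GRDim against 43.5 ± 4.9 CPM in GRWT. In the muscle-poor class it stood at -0.04 ± 0.21 (0.997), with means of 39.8 and 40.0 CPM. Mfsd10 had fold changes of 0.28 ± 0.11 in the muscle-rich class (edgeR adjusted p = 0.0525) and 0.45 ± 0.16 in the muscle-poor class (0.74).

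Other cell types moved with this contrast. All 6 markers of intraepithelial T cells were called higher in GRDim mice on water. Their summed level was 379 to 450 CPM in the muscle-rich GRDim libraries against 61.3 to 97.0 CPM in GRWT, and 301 to 500 against 198 to 436 CPM in the muscle-poor class. Of 5 Paneth cell markers 3 were called lower, with sums of 2200 to 2380 CPM against 6340 to 7620 CPM in the muscle-rich class and overlapping sums of 3220 to 4100 against 4000 to 5740 CPM in the muscle-poor class. Of 5 B and plasma cell markers 2 were called higher, and 2 of 8 villus enterocyte markers and 1 of 5 proximal small intestine markers were called lower. Goblet cell markers, of which 0 of 5 were called, summed to 6610 to 7450 CPM in GRDim against 11000 to 11100 CPM in GRWT in the muscle-rich class and to 12000 to 12500 against 15000 to 15500 CPM in the muscle-poor class. The smooth muscle sums in the muscle-rich class were 1790 to 2010 against 2330 to 2540 CPM. The part of these cell types in the levels of Tmco4, Mfsd10 and Fam210b was not tested.

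On zinc, all 6 genes had a negative genotype difference. The edgeR fit called Agtpbp1 lower in GRDim, by -1.08 ± 0.32 (adjusted p = 0.0379), 1 of 6 genes where 3.83% of all genes were called in either direction. Fam210b passed by adjusted p alone, at -0.5 ± 0.12 (adjusted p = 0.0195), as did 10.5% of all genes, and Rab29 stood at -0.39 ± 0.13 (0.0519). Tmco4 (-0.13 ± 0.16, edgeR adjusted p = 0.624), Mfsd10 (-0.1 ± 0.09, 0.482) and Raet1e (-0.1 ± 0.37, 0.891) did not pass. The median of the 6 was -0.26, against -0.01 over all genes tested. This contrast uses the zinc libraries through which the genes were chosen. Of the other cell types, 2 of 8 villus enterocyte markers and 2 of 5 proximal small intestine markers were called lower in GRDim on zinc, and 1 of 5 B and plasma cell markers higher. In the muscle-poor GRWT zinc libraries the villus sums were 25700 and 101000 CPM and the proximal sums 205 and 6690 CPM. The higher value of each was that of GRWT zinc ileum replicate 3. The muscle-poor GRDim zinc libraries had 20000 to 24200 CPM and 211 to 249 CPM. In the muscle-rich class on zinc, Paneth sums were 1810 to 4200 CPM in GRDim against 5840 to 7910 CPM in GRWT. Goblet sums were 7010 to 9070 against 10400 to 11900 CPM, and intraepithelial T cell sums 211 to 224 against 56.3 to 73.6 CPM. Paneth, goblet and T cell sums overlapped in the muscle-poor class. The part of these cell types in the levels of Agtpbp1 and Fam210b was not tested.

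**Figure D3:**
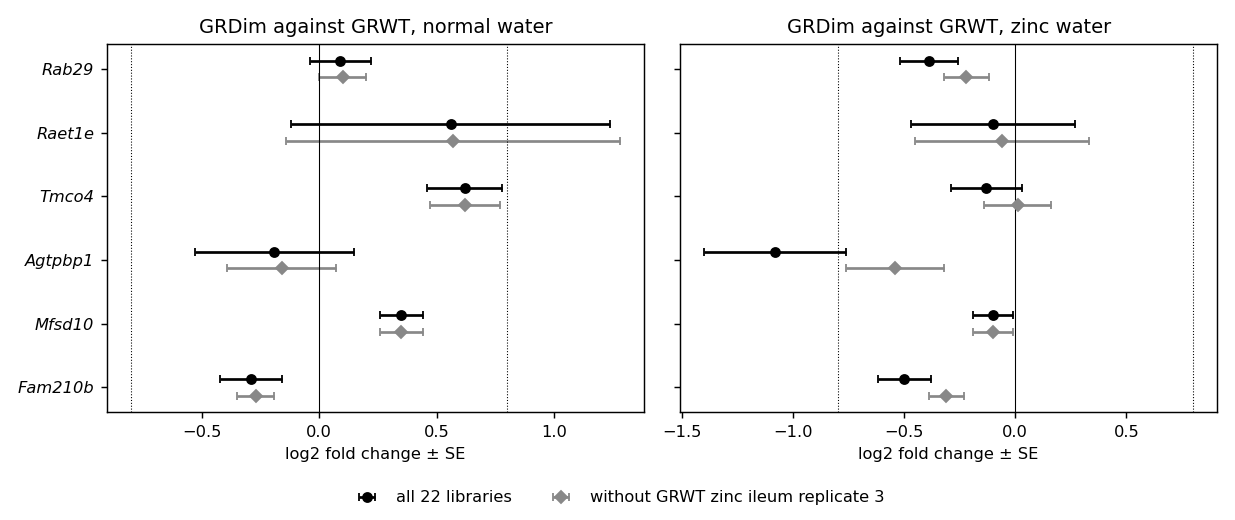
Log2 fold change of GRDim against GRWT on normal water (left) and on zinc water (right), with its SE. Black circles are the edgeR fit of all 22 libraries, grey diamonds the fit without GRWT zinc ileum replicate 3, and dotted lines mark the fold of 0.8 needed for a call. On zinc, Agtpbp1 moves from -1.08 to -0.54 when that library is left out, whereas the values on water move by at most 0.03.

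The genotype call of Agtpbp1 on zinc was lost without any 1 of 6 libraries. Without GRWT zinc ileum replicate 3, whose proximal small intestine markers stood apart as given above, the difference of Agtpbp1 was -0.54 ± 0.22 (edgeR adjusted p = 0.133) and it was no longer called. Fam210b was then at -0.31 ± 0.08 (adjusted p = 0.026, under the threshold with 8.77% of all genes), Rab29 at -0.22 ± 0.1 (0.167), Tmco4 at 0.01 ± 0.15 (0.971), Mfsd10 at -0.1 ± 0.09 (0.516) and Raet1e at -0.06 ± 0.39 (0.943). The other libraries without which the call was lost were GRDim zinc IEC replicates 4, 5 and 6 and GRDim zinc ileum replicates 2 and 3, and its adjusted p ran from 0.0193 to 0.133 over the 22 fits that each left out a library. Fam210b stayed under the threshold in all of these but the one without GRDim zinc ileum replicate 3 (adjusted p = 0.0506). Within the muscle-rich class, which does not hold the library that stands apart, Agtpbp1 was at -0.39 ± 0.23 (edgeR adjusted p = 0.302), with 22.0 ± 3.24 CPM in GRDim against 28.5 ± 10.3 CPM in GRWT. Within the muscle-poor class without that library it was at -1.09 ± 0.19 (edgeR adjusted p = 0.0441), a call shared with 0.126% of all genes that rests on the 1 remaining GRWT zinc library at 24.4 CPM, assumed to vary like the other libraries. With library totals in place of TMM scaling, Agtpbp1 was at -0.89 ± 0.27 (edgeR adjusted p = 0.0498), a call made for 2.78% of all genes.

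The difference between the zinc fold changes of GRDim and GRWT mice was estimated as an interaction. It is built from the zinc contrasts that chose the genes, so that no support is drawn from its signs. All 6 estimates were negative with all libraries and 0 of 6 passed the test. They were -0.89 ± 0.46 for Agtpbp1 (adjusted p = 0.666), -0.75 ± 0.22 for Tmco4 (0.64), -0.66 ± 0.77 for Raet1e (0.846), -0.47 ± 0.18 for Rab29 (0.651), -0.45 ± 0.13 for Mfsd10 (0.613) and -0.21 ± 0.18 for Fam210b (0.785), all by the edgeR quasi-likelihood test. At an unadjusted p under 0.05 there were 3 of the 6. Over all 16389 genes 0 passed (0.0%), 1227 (7.49%) had an unadjusted p under 0.05, and DESeq2 passed 3. The unadjusted 95% intervals were -0.7 to -0.2 for Mfsd10, -1.18 to -0.32 for Tmco4 and -0.82 to -0.12 for Rab29. They included 0 for Agtpbp1 (-1.79 to 0.01), Fam210b (-0.56 to 0.14) and Raet1e (-2.17 to 0.85). The median estimate of the 6 was -0.57, and that of all genes was 0.01. Without GRWT zinc ileum replicate 3 the estimates were -0.38 ± 0.32 for Agtpbp1, -0.03 ± 0.11 for Fam210b, -0.61 ± 0.21 for Tmco4, -0.63 ± 0.8 for Raet1e, -0.32 ± 0.14 for Rab29 and -0.46 ± 0.12 for Mfsd10 (edgeR adjusted p from 0.286 to 0.946). Over all genes, edgeR passed 36 higher and 6 lower in muscle-rich libraries alone.

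Most pairs of the 6 genes, but not Mfsd10 with Fam210b, rose and fell together from library to library, to differing degrees. Pairs of other genes are not given here for comparison. After each library was set against the mean of its condition and muscle class, on the log2(CPM + 0.5) scale, 14 of the 15 pairs of members had a positive Pearson r over the 22 libraries. The values ran from -0.21 for Mfsd10 with Fam210b through a median of 0.48 to 0.88 for Rab29 with Agtpbp1. With unscaled CPM the range was -0.36 to 0.79 and the median 0.36, again with 14 of 15 positive. Without GRWT zinc ileum replicate 3, which with replicate 2 makes a class of 2 libraries whose deviations mirror each other, 14 of 15 were positive, from -0.28 through a median of 0.37 to 0.79. The points share libraries and their scaling, so the correlations are a description. Set against Mt1 in the same way, Fam210b (0.78), Agtpbp1 (0.6), Tmco4 (0.57) and Rab29 (0.47) had the higher values, and Raet1e (0.09) and Mfsd10 (-0.17) the lower ones. Without that library the values were 0.77 for Fam210b, 0.43 for Agtpbp1, 0.42 for Tmco4, 0.25 for Rab29, 0.06 for Raet1e and -0.17 for Mfsd10.

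Among the muscle-rich GRWT zinc libraries, IEC replicate 5 was the lowest of 3 for 6 of 6 genes, with deviations from -0.84 for Raet1e and -0.68 for Agtpbp1 to -0.1 for Fam210b. Mt1 was also lowest there, at 1670 CPM against 2310 and 2260 CPM. In the muscle-poor pair, replicate 3 was above replicate 2 in TMM-scaled CPM for 5 of 6 genes, all but Mfsd10, and for Mt1, at 4580 against 2380 CPM. Unscaled, replicate 3 was lower for Raet1e (0.89 against 1.13 CPM) as well as Mfsd10 (13.8 against 21.2 CPM). Tmco4 was then nearly equal, at 105 against 104 CPM.

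**Figure D4:**
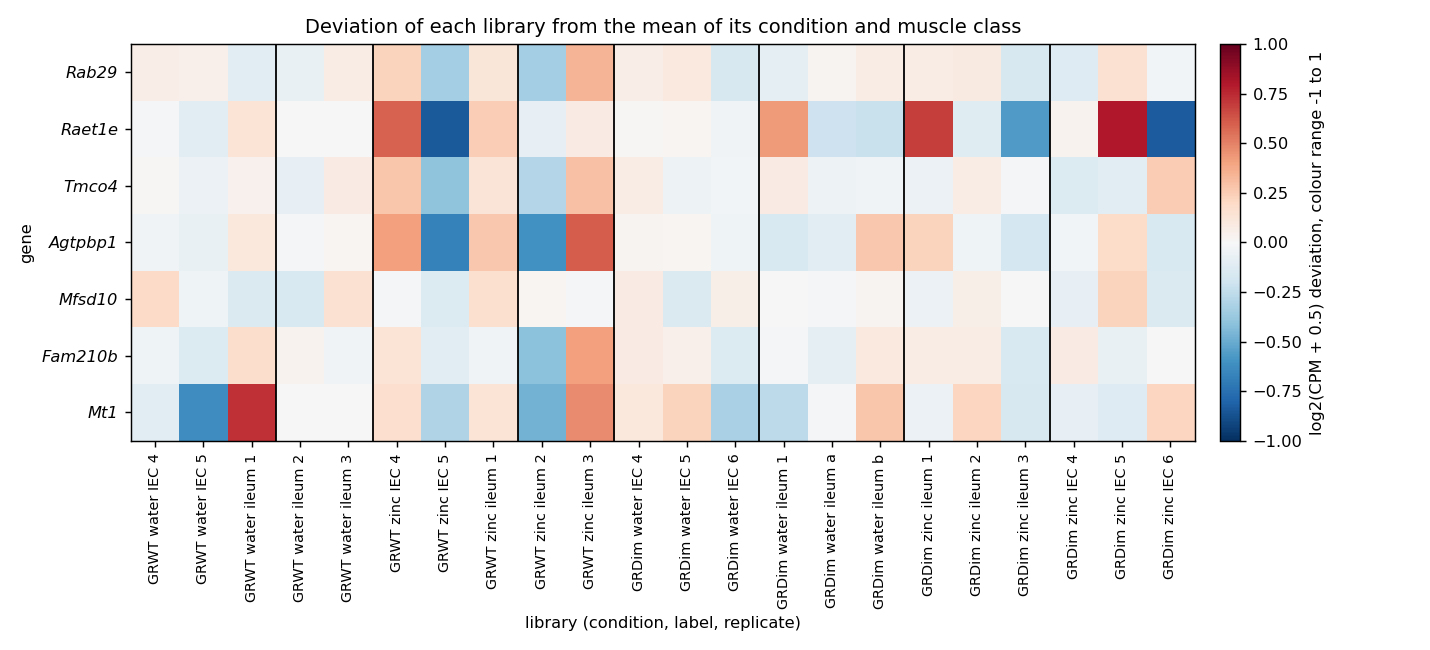
Deviation of each library from the mean of its condition and muscle class, as log2(CPM + 0.5), for the 6 genes and Mt1. Vertical lines separate the 8 combinations of condition and class, and red is above and blue below the mean. The column of GRWT zinc IEC replicate 5 is blue for all 6 genes.

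The genes whose pattern was most like that of each member were found by Pearson r of log2 levels, centred within the muscle class, over the 22 libraries, among 12945 other named genes with a mean of at least 1 CPM. Metallothioneins led the list for Rab29 (Mt4, r = 0.941, then Slc30a2, 0.936, and Mt1, 0.936), for Raet1e (Mt4, 0.912, Mt1, 0.876, Mt2, 0.855) and for Mfsd10 (Mt4, 0.87, Mt1, 0.85, then Dnlz, 0.819). Slc30a2 is a vesicular zinc transporter. Tmco4 was closest to Cabin1 (0.856), followed by Mt1 (0.856) and Mt4 (0.848). Agtpbp1 was closest to Slc25a23, a mitochondrial carrier (0.938), Ndrg1 (0.923) and the receptor tyrosine kinase gene Ret (0.914). Fam210b shared Ndrg1 (0.972) with Agtpbp1, and was also close to Slc30a2 (0.972) and Bahd1 (0.944). Without GRWT zinc ileum replicate 3, the first gene was as before for Rab29, Raet1e, Mfsd10 (Mt4 each, r = 0.955, 0.908 and 0.862) and Agtpbp1 (Slc25a23, 0.894). Tmco4 was then closest to Hdac1 (0.884) and Fam210b to Slc30a2 (0.972), and Agtpbp1 was followed by Slc30a2 (0.891) and Mt4 (0.888). Since all 6 were chosen for rising with zinc, a likeness to zinc-responsive genes follows from the choice.

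Relatives and partners of the 6 genes were put in 6 lists with 82 genes, of which 66 were tested. With zinc, 1 of the 66 was called higher in each genotype, against 0.122% and 0.232% of all genes, and it was the same gene: Raet1d, a neighbouring NKG2D ligand that shares 363 exon bases with Raet1e. It had 3 counts in all on water and 91 on zinc in GRWT, and 9 and 82 in GRDim, ratios of 29.5 (95% exact interval 9.79 to 146) and 9.29 (4.66 to 21) per library total. DESeq2 called it in GRDim alone. H60b, which shares 133 exon bases with Raet1e, had 34 and 30 counts in GRWT and 29 and 18 in GRDim, ratios of 0.859 (0.508 to 1.45) and 0.633 (0.331 to 1.18). Among the NKG2D receptor genes, Klrk1 had a zinc fold change of 0.24 ± 0.44 in GRWT (edgeR adjusted p = 0.818) and of -0.66 ± 0.39 in GRDim (0.438).

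Of the Lrrk2 pathway, 17 genes that include Lrrk2 itself and its other Rab substrates, none was called in any of the 4 comparisons by edgeR or DESeq2, and 2, 2, 5 and 3 had an unadjusted p under 0.05 for zinc in GRWT, zinc in GRDim, genotype on water and genotype on zinc. The shares over all genes in the same order were 15.4%, 15.5%, 31.2% and 28.9%. The median zinc fold change was -0.04 in GRWT and -0.05 in GRDim. Of 10 tested enzymes of tubulin glutamylation and its removal, none was called with zinc by either tool, with 1 and 0 at an unadjusted p under 0.05. The 15 tested Mfsd transporters (1 and 2 at an unadjusted p under 0.05), the 3 tested Tmco genes (1 and 1) and the 16 genes of heme synthesis with Fam210a (8 and 3) gave no call with zinc by either tool. The median fold change of the heme list was 0.24 in GRWT and -0.01 in GRDim. On water, the genotype comparison called 2 of the 66 genes, where 5.68% of all genes were called, and whether these shares differ was not tested. Hcst, the signalling adaptor of NKG2D, was higher in GRDim by 1.18 ± 0.32 (edgeR adjusted p = 0.0188), and Ttll6, a tubulin glutamylase, was lower, by -1.55 ± 0.45 (0.0246). Hcst moved there beside the intraepithelial T cell markers given above. On zinc, 0 of the 66 were called between genotypes by edgeR or DESeq2, and 20 had an unadjusted p under 0.05, near the share of 28.9% over all genes.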

How the data were processed

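The labels assigned all 22 libraries to genotype, drinking water and tissue. The series text mentions dexamethasone, which no library's label names, and no library was treated here as having received it. The authors trimmed the reads with Trimmomatic, mapped them to mm10 with HISAT2 2.0.4, and obtained gene counts from featureCounts without multi-mapping reads. The deposited values are raw read counts (13149951 to 15620744 per library), with no normalization. The annotation release and the strand setting are not given in the sources used here. A pair of GRDim water ileum columns shared 1 name, so these libraries carry no replicate number. No 2 libraries agreed within sampling noise. Of 54838 gene identifiers, 54809 were found in GENCODE vM21.

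Counts were fitted with edgeR 4.0.16 in R 4.3.3 (TMM, filterByExpr, robust quasi-likelihood F tests) on 4 conditions with the muscle class as covariate. P-values were adjusted by Benjamini-Hochberg over 16389 genes. A call needed an adjusted p under 0.05 and a log2 fold change beyond 0.8, and for the interaction the adjusted p alone. The SE was derived from the F statistic. The fit was tested on simulated data. DESeq2 1.42.0, other covariates, filters and scalings, and each library left out were tried as alternatives. The genes named as alike are the 3 with the highest r for each member. The members and lists were chosen with earlier results of these data known. No peptide or genomic sequence beyond the RefSeq promoter table was used here.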

Additional observations from a re-analysis of the deposited data

Results flagged for a closer look

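The level of each gene in each condition was checked for a single library far from the others, 24 groups of 5 or 6 libraries in all, of which chance flags about 1 in 20. In 2 groups a library stood out. Fam210b in GRWT mice on zinc was at 137 CPM in ileum replicate 3, with 0.828 of the group's range lying between it and the next library (critical value 0.71 for 5 libraries). Unscaled, that library had 86.2 CPM, and the gap was 0.153 of the range. Tmco4 in GRDim mice on zinc was at 112 CPM in IEC replicate 6, with a gap of 0.701 of the range (critical value 0.625 for 6 libraries). Unscaled, it was at 104 CPM with a gap of 0.253. Among the unscaled values, Tmco4 in GRWT mice on zinc had a gap of 0.731 below its lowest library, IEC replicate 5, at 60 CPM.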

How the results depend on the processing

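Settings added after seeing the data were library totals as the only scaling, a fit of condition by muscle class cells, muscle-poor libraries without GRWT zinc ileum replicate 3, and levels, correlations and likeness without it. Of the 6 genes, the number called for zinc in GRWT was 6, and 1 with muscle-poor libraries alone, 4 with muscle-rich libraries alone, and 5 with the tissue label, with no covariate, with DESeq2, with the replicate block and with muscle-poor libraries without GRWT zinc ileum replicate 3, and 5 to 6 with single libraries left out. For zinc in GRDim it was 2, 0 with muscle-poor libraries alone, 3 with DESeq2 and with condition by muscle class cells (Agtpbp1 added), and 1 to 3 with single libraries left out. For genotype on water it was 0, 1 with muscle-rich libraries alone, and 0 with any library left out. For genotype on zinc it was 1, 0 with the tissue label as covariate, with no covariate, with either muscle class alone and with no count filter (Agtpbp1 at -0.99, -0.98, -0.39, -1.83 and -1.09), and 0 to 1 with single libraries left out. Over all genes, calls also moved with these settings: apart from single libraries left out, zinc called 5 to 209 genes higher in GRWT and 4 to 124 in GRDim, and genotype on water 4 to 825 higher and 0 to 910 lower. Zinc called 142 higher in GRDim without GRWT zinc ileum replicate 3. For zinc in GRWT the main fit called 20 of 16389 genes higher. Muscle-poor libraries alone gave 5 of 13908 and muscle-rich ones 17 of 16768. The tissue label gave 11, no covariate 11 and DESeq2 121. For zinc in GRDim the main fit called 38 higher, muscle-poor libraries alone 4, DESeq2 82 and condition by muscle class cells 100. Genotype on zinc called 269 genes higher and 359 lower in the main fit. It called 14 and 4 with the tissue label, 18 and 32 with no covariate, and 162 and 189 of 30674 with no count filter. In muscle-rich libraries alone it called 393 and 329, and in muscle-poor ones 6 and 2. For the interaction the number of the 6 genes passing was 0 under every setting run. For zinc in GRWT, DESeq2 gave Raet1e (3.6 ± 0.62) no adjusted p, so that no call could be made for it. The cause of the other changes was not tested, except that the muscle class fits hold fewer samples.

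Equal replicate numbers did not mark pairs across conditions: over 25 such pairs the correlation of deviations ran from -0.103 to 0.139, and 1 was over 0.1. Libraries of the same condition were not compared in this way, so pairing within a condition was not tested. With the replicate block, which drops the pair without numbers, 5 genes were called for zinc in GRWT, 1 for zinc in GRDim, 1 for genotype on water (Tmco4, 0.85 ± 0.13, edgeR adjusted p = 0.00137) and 0 for genotype on zinc, where Raet1e was at 0.01. Over all 16970 genes tested, that fit called 14 higher for zinc in GRWT and 78 for zinc in GRDim. For genotype it called 565 higher and 426 lower on water, and 92 higher and 34 lower on zinc.

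Signs turned only for small estimates. Agtpbp1 on water was at 0.07 in muscle-poor libraries, with or without replicate 3. On zinc, Raet1e ran from -0.40 to 0.11 over the fits that each left out a library, and was positive without GRDim zinc IEC replicate 6, GRDim zinc ileum replicate 3 or GRWT zinc IEC replicate 4. Tmco4 was at 0.19 in muscle-rich libraries and ran from -0.25 to 0.01 with single libraries left out, the latter without GRWT zinc ileum replicate 3, and Mfsd10 at 0.00 with library totals. The interaction for Fam210b was 0.16 in muscle-rich libraries. The fitted fold of Raet1e on water depends on 1 to 5 counts a library.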
